A study of Mus musculus with 6 samples.

Results

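The nuclear genes that encode the subunits of oxidative phosphorylation were followed in the abdominal aorta of mice in which Prdm16 was deleted from vascular smooth muscle cells (VSMCs). Members were taken by symbol. They were the Nduf genes with the letter a, b, c, s or v followed by a number, the 4 Sdh genes, and the Uqcr, Cox4 to Cox8 and Atp5 genes. Of 55426 genes in the deposited table, 97 matched, and 80 had a mean of at least 0.5 TPM over the 6 libraries and were kept. TPM, the deposited unit, is the share of a transcript among all transcripts of a library, corrected for transcript length. Left out were 8 whose names hold -ps, a mark the nomenclature uses for pseudogenes, 7 below the minimum, of which 5 were at 0 in every library, and the muscle and brown fat isoforms Cox7a1 and Cox8b, which the rule names. One of the 8, Ndufb1-ps, was nonetheless at 26.5 to 38.6 TPM in all 6 libraries, and a processed pseudogene whose name lacks the mark, Ndufb4c, was kept. The lowest mean inside the minimum was 3.84 TPM (Cox4i2), and the highest outside it was 0.19 TPM (Ndufa11b). The 80 genes comprised 36 of complex I (7 core catalytic and 29 accessory subunits, Ndufb4c counted among the latter), 4 of complex II, 8 of complex III, 15 of complex IV and 17 of complex V. These counts are of members and not of every nuclear subunit. Ndufab1 and Cyc1, which the names do not match, stand on the list of electron carriers and coenzyme Q synthesis further on.

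Both groups were male mice on the C57BL/6J strain, with 3 libraries each. The Prdm16SMKO mice were Prdm16 fl/fl and carried Myh11-CreERT2, a Cre recombinase that tamoxifen switches on in cells using the Myh11 promoter, encoded on the Y chromosome. The labels call the other group control, and the paper names them wild-type mice with Myh11-CreERT2. Tamoxifen was given by gavage to mice aged 8 to 10 weeks, at 75 mg/kg/day for 5 days, and the aorta was taken 2 weeks later. The labels do not state separately that control mice received it. The whole vessel was extracted, so the RNA also holds cells in which Cre is not active, and in bulk RNA fewer cells of a type and less RNA per cell cannot be told apart. The libraries are numbered replicates with no animal named, and p-values therefore measure the spread between libraries.

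Oxidative phosphorylation makes ATP in the inner mitochondrial membrane. Complex I takes electrons from NADH and complex II from succinate, complex III passes them from ubiquinol to cytochrome c, complex IV hands them to oxygen, and complex V uses the proton gradient so built to make ATP. The complexes other than II combine proteins encoded in the nucleus with a few encoded by mitochondrial DNA. VSMCs of large arteries draw much of their ATP from glycolysis, whereas brown adipocytes, which can surround the aorta, are packed with mitochondria and burn fuel for heat. PRDM16 is known as a regulator of brown and beige adipocyte identity.

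The promoters of these genes are known for binding sites of NRF1, of ETS factors such as GABP, and of YY1. Promoters of RefSeq (GRCm38.p6), each 250 bases before and 50 bases after the annotated start, were matched to 65 of the 80 genes. Sequences were searched on both strands, GCGCNNGCGC for NRF1, CCGGAAG for ETS factors and AAGATGGC for YY1, and no matches of different sequences overlapped in these promoters. The NRF1 sequence stood in 17 promoters (26.2%, against 13.1% of the 10970 promoters matched to tested genes), the ETS sequence in 16 (24.6% against 17.4%) and the YY1 sequence in 9 (13.8% against 4.53%). At least 1 of them was found in 37 (56.9% against 30.9%). A match is a string of letters and not a measured binding site. One member of each complex is shown as an example, each with a match in the stretch printed. A link between these sequences and the levels of the genes was not tested. The stretches are the bases nearest the start that lie outside annotated exons, at most 160 each, 5′ to 3′ on the gene's strand, with the searched sequences in capitals, and they cover chr16:37654454-37654613 for Ndufb4, chr13:74350281-74350308 for Sdha, chr4:116075072-116075231 for Uqcrh, chr5:115348982-115349129 for Cox6a1 and chr11:115419963-115420122 for Atp5h, all on the minus strand.
Ndufb4: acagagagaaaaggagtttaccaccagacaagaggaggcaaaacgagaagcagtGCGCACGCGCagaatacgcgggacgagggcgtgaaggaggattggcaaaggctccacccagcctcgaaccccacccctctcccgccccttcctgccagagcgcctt
Sdha: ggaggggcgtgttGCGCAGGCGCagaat
Uqcrh: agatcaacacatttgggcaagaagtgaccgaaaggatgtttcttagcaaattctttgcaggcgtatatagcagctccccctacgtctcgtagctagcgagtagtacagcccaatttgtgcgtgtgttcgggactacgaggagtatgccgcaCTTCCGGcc
Cox6a1: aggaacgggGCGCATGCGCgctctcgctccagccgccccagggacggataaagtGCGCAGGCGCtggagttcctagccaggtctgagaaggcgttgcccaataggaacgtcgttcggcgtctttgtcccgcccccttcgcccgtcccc
Atp5h: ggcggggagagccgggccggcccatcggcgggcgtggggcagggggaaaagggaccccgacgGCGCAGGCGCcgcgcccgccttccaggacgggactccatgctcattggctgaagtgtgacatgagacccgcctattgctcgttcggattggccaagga
Capitals mark the NRF1 sequence in Ndufb4, Sdha, Cox6a1 (at 2 places) and Atp5h, and the ETS sequence, read on the other strand, in Uqcrh. Members with no promoter found included Atp5a1, Atp5mpl, Cox4i1, Cox4i2, Cox6c, Ndufa2, Ndufa4l2, Ndufb4c, Ndufb9, Ndufs1, Sdhc, Uqcrb, Uqcrc2 and Uqcrq.

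The libraries were read to an average of 40 M pairs of 151 bp by the labels, and the depth of each is unknown, as TPM keep no read numbers. Mitochondrially encoded transcripts took 15.8% to 27.4% of a library's TPM and 45S ribosomal RNA transcripts 15.5% to 31.4%, so a nuclear gene's TPM moves with these shares. Markers of VSMCs, which define the labelled tissue, summed to 14373 to 30079 TPM per library and were lowest in Prdm16SMKO library 3. Prdm16, the targeted gene, was at 33.4, 36.8 and 30.8 TPM in control and 20.8, 27.7 and 14.8 TPM in Prdm16SMKO libraries 1, 2 and 3, with no overlap between groups and a log2 fold change of −0.70 (limma, adjusted p = 0.376 by Benjamini-Hochberg, standard error 0.23).

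The aorta expressed these genes strongly. On the TPM scale, which is per transcript length, the mean level ran from 3.84 TPM (Cox4i2) to 1083 TPM (Atp5b, the catalytic F1 beta subunit), with a median of 119 TPM against 8.14 TPM over the 15775 genes tested. Atp5b was followed by the complex IV genes Cox8a, Cox6a1, Cox4i1, Cox6c and Cox7c, and these 6 were the ones with a mean over 300 TPM. Genes for parts that stand in the same complex did not share a level. In complex I the accessory subunit Ndufa6 had 189 to 278 TPM and Ndufb4 14.5 to 31.6 TPM over the 6 libraries. The members lay on 19 chromosomes, with 4 on chromosome 4, which also carries Prdm16. The nearest of these was Sdhb, 13.3 Mb away, with a log2 fold change of 0.20. Their transcripts were short, with a median longest transcript of 1003 bases against 3044 bases over the genes tested, and their GC content was similar (median 50.2% against 49.6%).

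No member differed between Prdm16SMKO and control aortas at an adjusted p under 0.05 (limma on log2(TPM + 0.5), Benjamini-Hochberg over all genes tested), where 0.355% of all genes did. At an unadjusted p under 0.05 there was again 0 of 80, against 4.88% of all genes higher and 3.85% lower in Prdm16SMKO mice. The smallest adjusted p was 0.605, and the standard errors of the log2 fold changes ran from 0.14 to 0.36 with a median of 0.21. Nevertheless, 73 of the 80 had a log2 fold change above 0, against 54.2% of all genes. Their median was 0.18, and the single values ran from −0.30 (Atp5g1) to 0.44 (Ndufb4), while the median of all genes tested was 0.02. The groups did not overlap in 2 members, Atp5mpl and Cox7a2l, both higher in Prdm16SMKO mice, against 7.02% of all genes with knockout above control and 5.76% with knockout below.

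The direction was common to all 5 complexes. The median log2 fold change was 0.16 in complex I, where 32 of 36 genes were above 0, 0.29 in complex II (4 of 4), 0.16 in complex III (8 of 8), 0.23 in complex IV (15 of 15) and 0.21 in complex V (14 of 17). Within complex I it was 0.21 for the core subunits, all 7 of them above 0, and 0.12 for the accessory subunits (25 of 29). It rested largely on 1 library. Without Prdm16SMKO library 3, 47 of the 80 genes were above 0, against 60.5% of all genes, and the median was 0.03, against 0.06 for all genes. The medians of complexes I to V were then 0.00, 0.01, −0.05, 0.07 and 0.07, and 27 members went from above to below 0. Without control library 3, the lowest of its group, 60 were above 0, against 40.3% of all genes, with a median of 0.05 against −0.07 for all genes. Leaving out Prdm16SMKO library 2 had the opposite effect. The median was then 0.32, against 0.00 for all genes, with 76 genes above 0, against 50% of all genes. The groups of 2 and 3 libraries did not overlap in 33 members, all higher in Prdm16SMKO mice, against 10.3% of all genes higher and 11.3% lower. In that fit 9 genes, 6 of them of complex I, were higher at an unadjusted p under 0.05 (limma), against 3.84% of all genes, with 0 at an adjusted p under 0.05.

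**Figure D1:**
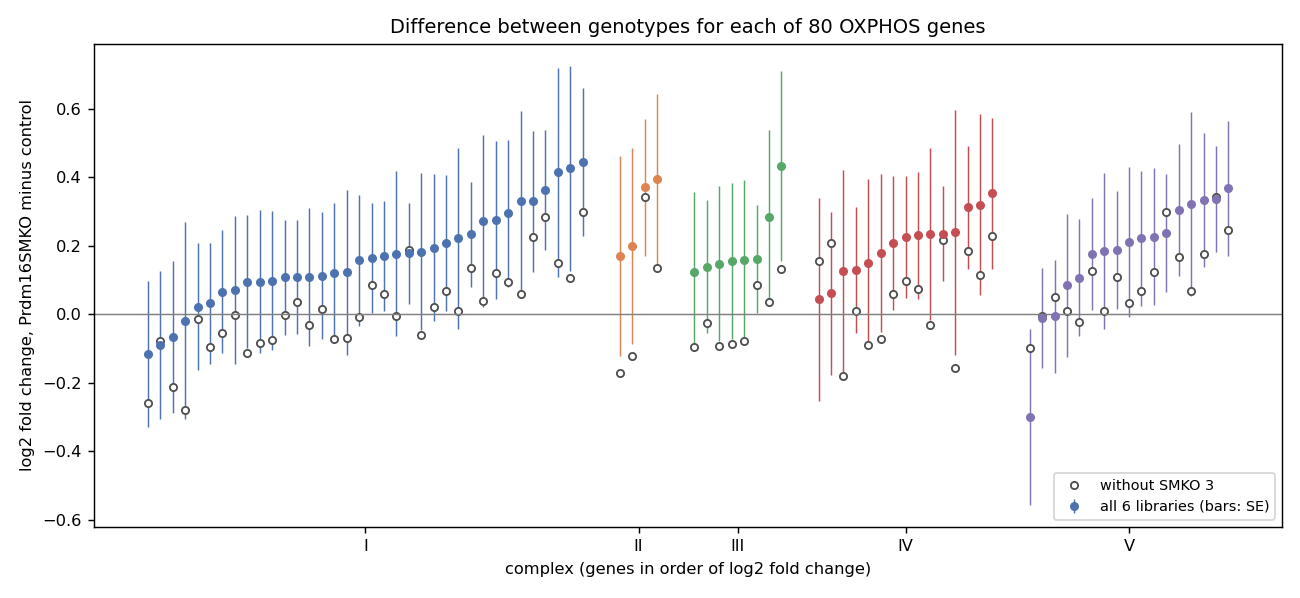
Log2 fold change (Prdm16SMKO minus control, log2(TPM + 0.5) scale) of each of the 80 genes on the vertical axis, ordered within complexes I to V on the horizontal axis. Filled points are the fit with all 6 libraries, bars are its standard error, and open circles are the fit without Prdm16SMKO library 3, in which the median was 0.03 in place of 0.18.

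The members were ordered by library more than by genotype. Prdm16SMKO library 3 had the highest TPM of the 6 libraries in 64 of the 80 genes, among them all 8 of complex III, and control library 3 had the lowest in 60. Prdm16SMKO library 2 had the lowest in 16. Library 3 of the Prdm16SMKO group was above every control in 70 genes and library 1 in 35. Library 2 was above every control in 8 genes and below every control in 17. Relative to each gene's own mean on the log2 scale, the median member stood at 0.02, 0.06 and −0.34 in control libraries 1, 2 and 3 and at 0.08, −0.20 and 0.41 in Prdm16SMKO libraries 1, 2 and 3. The corresponding medians of all genes tested were 0.01, 0.16 and −0.20, then 0.05, 0.04 and −0.10. In Prdm16SMKO library 3 the members thus stood high while the median gene stood below its mean. The median member spanned 1.79-fold from its lowest to its highest library.

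**Figure D2:**
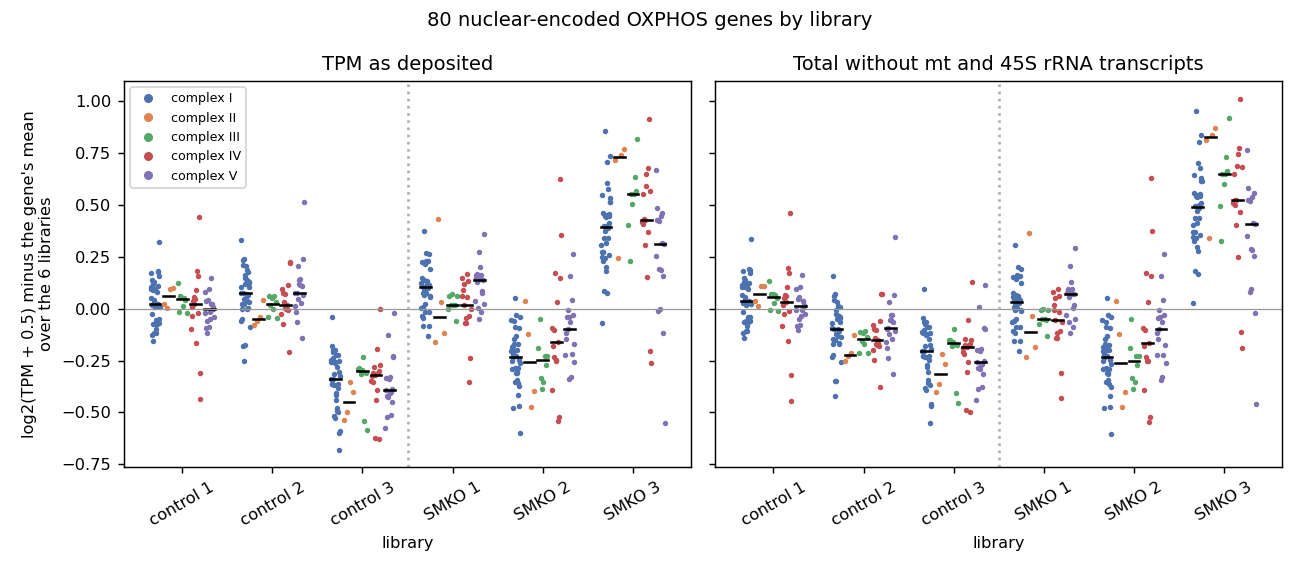
Each point is 1 of the 80 genes in 1 library, as log2(TPM + 0.5) minus that gene's mean over the 6 libraries (vertical axis), with colours for complexes and black bars for the median of each complex. On the deposited TPM (left) control 3 lies low and Prdm16SMKO (SMKO) 3 high, and after mitochondrially encoded and 45S ribosomal RNA transcripts were taken out of the total (right) SMKO 3 stands above the other 5 libraries.

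The summed TPM of the 80 genes was 11718, 11925 and 8988 in control libraries 1, 2 and 3 and 12204, 10210 and 15452 in Prdm16SMKO libraries 1, 2 and 3. The control library at 8988 was also the one with the largest share of 45S ribosomal RNA, 31.4%. After the TPM were rescaled to the same total without those transcripts and the mitochondrially encoded ones, the sums were 21726, 19466 and 18163 in control and 21369, 18765 and 30355 in Prdm16SMKO mice. On this scale library 3 of the Prdm16SMKO group was highest in 72 of 80 genes, and the other 5 libraries lay between 18163 and 21726 with the groups interleaved. The number of members with a log2 fold change above 0 was 75 and the median 0.20.

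The summed markers of fat moved largely with this order. The summed TPM of 10 brown adipocyte markers was 321, 155 and 120 in control and 182, 43.6 and 842 in Prdm16SMKO libraries 1, 2 and 3. Ucp1, which makes brown fat mitochondria release heat, was at 49.01, 12.9 and 11.8 TPM in control and 23.4, 0 and 170 TPM in Prdm16SMKO mice. Cidea, a lipid droplet protein of brown adipocytes, ran in the same order, from 5.09 TPM in Prdm16SMKO library 2 to 308 TPM in library 3, whereas Zic1 was at 0 in 5 libraries and 0.07 TPM in the other. Of the 10 markers, 8 passed the expression minimum, all 10 were highest in Prdm16SMKO library 3, and Ppargc1a also stands among the regulators listed further on. The summed TPM of 10 general adipocyte markers was 1877, 1268 and 936 in control and 1277, 1170 and 4373 in Prdm16SMKO mice, which is the order of the rescaled sums of the 80 genes from the highest to the lowest library, although control library 2 and Prdm16SMKO library 2 changed places when the markers were rescaled as well. Fabp4 and Cfd held the largest parts of the general adipocyte sum in Prdm16SMKO library 3, at 1864 and 1488 TPM. Plin4, on the same list, went another way (log2 fold change −0.33). It had 132, 149 and 96.3 TPM in control and 97.0, 93.3 and 106 TPM in Prdm16SMKO mice. The part of fat tissue in the differences of the 80 genes was not tested. Without Prdm16SMKO library 3 and control library 1, 56 members were above 0, against 61.8% of all genes. Their median was 0.08, as was that of all genes, and 0 passed an adjusted p under 0.05 (limma, Benjamini-Hochberg). This pair had the most brown adipocyte marker TPM and was chosen after the data were seen. The fit cannot separate fat from other traits of Prdm16SMKO library 3, the highest library in 64 of the 80 genes. Leaving out that library alone gave 47 above 0 and a median of 0.03.

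Not every abundant class of nuclear transcripts followed this order of libraries. The 84 cytosolic ribosomal protein genes summed to 46177, 51028 and 43973 TPM in control and 52720, 47377 and 44384 TPM in Prdm16SMKO mice. Library 3 was the lowest of its group on this scale. Rescaled as above, the sums were 85618, 83297 and 88859 in control and 92314, 87071 and 87192 in Prdm16SMKO mice. Of the 84 genes, 66 had a log2 fold change above 0, against 54.2% of all genes. Without Prdm16SMKO library 3 it was 80, against 60.5%. Their median log2 fold change was 0.05, and it was 0.10 without Prdm16SMKO library 3 and −0.01 without control library 3.

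**Figure D3:**
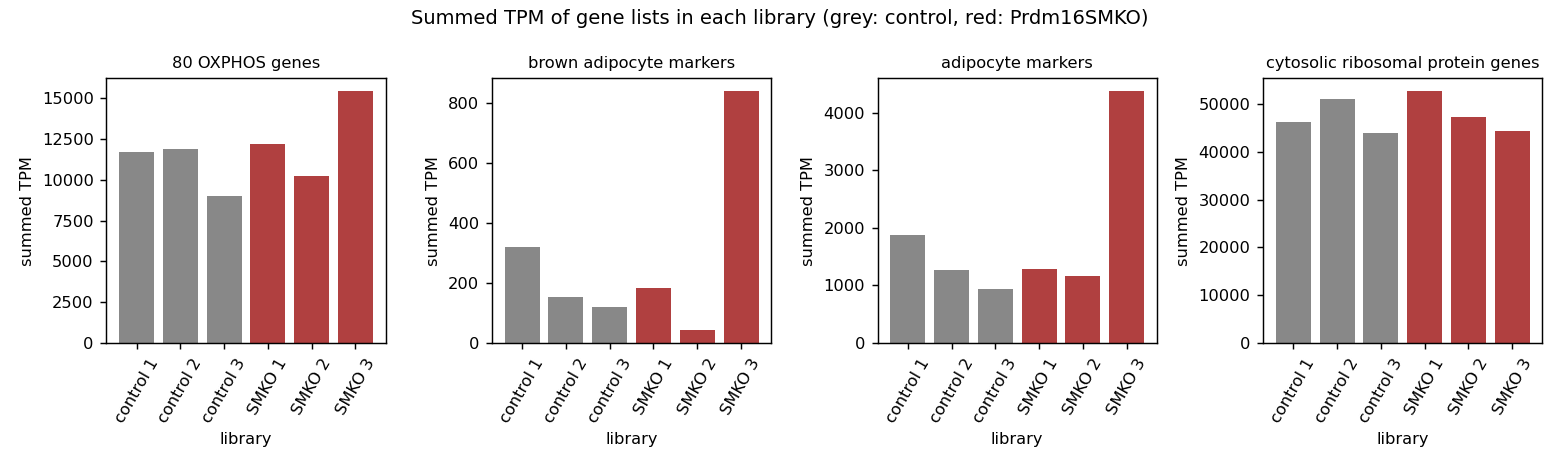
Summed TPM (vertical axes, from 0) of the 80 OXPHOS genes, 10 brown adipocyte markers, 10 adipocyte markers and 84 cytosolic ribosomal protein genes in each library, in grey for control and red for Prdm16SMKO mice. The OXPHOS sum and both fat marker sums are highest in SMKO 3, where the ribosomal protein sum, 44384 TPM, is not.

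Complex I feeds electrons from NADH into the chain. Among its core subunits Ndufv1, which binds NADH, had 63.8, 68.1 and 47.5 TPM in control and 72.7, 52.2 and 108 TPM in Prdm16SMKO libraries 1, 2 and 3. Its log2 fold change was 0.33 (standard error 0.27) and was 0.06 without library 3. The groups overlapped in all 36 members of the complex. The accessory subunit with the highest level, Ndufa6 (233, 215 and 189 TPM in control, 225, 216 and 278 TPM in Prdm16SMKO mice), had a log2 fold change of 0.17. Ndufb8, an accessory subunit of the membrane arm, had 120.2, 92.3 and 76.6 TPM in control and 121, 85.9 and 199 TPM in Prdm16SMKO mice. It had 1 of the larger log2 fold changes (0.43, standard error 0.30, limma, Benjamini-Hochberg adjusted p = 0.823), which was 0.11 without Prdm16SMKO library 3. The largest of the 80 belonged to Ndufb4 (chromosome 16 of GRCm38, 37647170 to 37654453), an accessory subunit. It was at 22.1, 20.6 and 14.5 TPM in control and 25.2, 21.4 and 31.6 TPM in Prdm16SMKO mice, with means of 19.1 ± 4.07 and 26.1 ± 5.17 TPM (SD, n = 3 each) and a log2 fold change of 0.44 (limma, adjusted p = 0.641 by Benjamini-Hochberg, standard error 0.21). It was 0.30 without Prdm16SMKO library 3 and 0.26 without control library 3, the lowest of its group.

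Ndufb4 has a near-identical copy without introns, Ndufb4c (chromosome 15, 73809507 to 73809896), which the annotation types as a processed pseudogene, and reads can be placed on either. Most of the TPM was placed on the copy, at 212, 209.5 and 157 TPM in control and 217, 172 and 236 TPM in Prdm16SMKO mice. The share on Ndufb4 was 9.46%, 8.97% and 8.43% in control and 10.4%, 11.05% and 11.8% in Prdm16SMKO mice, without overlap. The levels of both genes are uncertain for this reason.

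A few complex I genes chosen after their values were seen went the other way, each by less than its standard error. Ndufv3 (−0.12), Ndufa11 (−0.09), Ndufa3 (−0.07) and Ndufs4 (−0.02) are accessory subunits. Ndufc1, chosen likewise, was at 106, 104 and 102 TPM in control and 154, 105 and 149.8 TPM in Prdm16SMKO mice. Its control libraries spread by less than 5 TPM, and Prdm16SMKO library 2 lay within their range. The log2 fold change was 0.36 (limma, adjusted p = 0.641 by Benjamini-Hochberg, standard error 0.18).

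Complex II oxidises succinate and also belongs to the citric acid cycle. Sdha, its flavoprotein, was at 93.2, 86.7 and 63.1 TPM in control and 82.0, 94.0 and 151 TPM in Prdm16SMKO mice, with a log2 fold change of 0.39 (standard error 0.25), and of 0.14 without library 3. Sdhc, a membrane anchor, had 82.3, 78.9 and 58.0 TPM in control and 111, 75.5 and 97.5 TPM in Prdm16SMKO mice. It was highest in library 1, and its log2 fold change of 0.37 (standard error 0.20) was 0.34 without library 3, 0.25 without library 1 and 0.21 without control library 3. The iron-sulfur subunit Sdhb and the other anchor Sdhd were chosen after their values were seen. They turned from 0.20 and 0.17 to −0.12 and −0.17 without Prdm16SMKO library 3. The 4 genes of 1 complex thus differed in how far their direction rested on that library.

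Complex III passes electrons to cytochrome c. All 8 members of this complex were highest in Prdm16SMKO library 3, and 5 had a log2 fold change below 0 without that library. Uqcrfs1, the Rieske iron-sulfur protein at its catalytic centre, had 41.0, 40.4 and 27.6 TPM in control and 43.5, 35.5 and 73.8 TPM in Prdm16SMKO mice. The log2 fold change was 0.43 (limma, adjusted p = 0.789 by Benjamini-Hochberg, standard error 0.28), and 0.13 without library 3. Uqcrc1, a core protein, followed with 0.28 and 0.04. The small subunits Uqcrb and Uqcrh had higher levels than these and narrower spans. Uqcrb, a ubiquinone-binding protein, ran from 213 to 283 TPM in control and from 229 to 344 TPM in Prdm16SMKO mice. Uqcrh, the hinge protein, ran from 203 to 258 TPM and from 239 to 291 TPM, with log2 fold changes of 0.14 and 0.16. The other small subunits Uqcr10, Uqcr11 and Uqcrq spanned 1.86-fold, 1.85-fold and 1.88-fold from their lowest to their highest library.

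Complex IV reduces oxygen to water. Its most abundant nuclear gene, Cox8a, was at 482, 505 and 405 TPM in control and 571, 482 and 687 TPM in Prdm16SMKO mice, a log2 fold change of 0.31 (limma, adjusted p = 0.732 by Benjamini-Hochberg, standard error 0.18). Cox6a1, the subunit 6A found outside heart and muscle, had 489, 521 and 389 TPM against 509, 371 and 716 TPM. Its Prdm16SMKO libraries held both the lowest and the highest of the 6 values, and its log2 fold change, 0.15, was −0.09 without library 3. Cox7b, a small membrane subunit, was at 224, 232 and 143 TPM in control and 211, 249 and 297 TPM in Prdm16SMKO mice, with a log2 fold change of 0.35 (standard error 0.22). Cox5a, a matrix subunit chosen after its values were seen, had the widest span of the 80 genes, 2.94-fold, from 38.7 TPM in control library 3 to 114 TPM in Prdm16SMKO library 3.

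Cox7a2l (chromosome 17, 83501918 to 83517330), a relative of subunit 7A known as a supercomplex assembly factor, stood apart from this. Whether its protein has that function in these mice was not measured. It was at 125, 141 and 122 TPM in control and 157, 143 and 156 TPM in Prdm16SMKO mice, so that every Prdm16SMKO library lay above every control. The means were 129 ± 9.95 and 152 ± 7.70 TPM (SD, n = 3 each), and the log2 fold change was 0.24 (limma, adjusted p = 0.744 by Benjamini-Hochberg, standard error 0.14, exact permutation test, two-sided p = 0.1, the smallest that 3 against 3 allows). Prdm16SMKO library 3 was not its highest, and the value without that library was 0.22. Its partner Cox7a2, the subunit itself, overlapped between groups (115, 116 and 94.4 TPM against 128, 105 and 151 TPM).

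Several subunits have isoforms of particular tissues or oxygen levels. Of the low-level ones, Cox4i2 and Ndufa4l2 were highest in Prdm16SMKO library 2, and Cox6b2 in library 3 as most members were. Cox4i2, the oxygen-responsive form of subunit 4, was at 2.95, 4.48 and 3.78 TPM in control and 3.78, 4.97 and 3.07 TPM in Prdm16SMKO mice, beside 293 to 497 TPM of Cox4i1, the usual form. It made up 0.61% to 1.48% of the pair. Ndufa4l2, a hypoxia-induced relative of the complex IV subunit Ndufa4, had 24.0, 15.1 and 14.1 TPM in control and 13.6, 27.3 and 15.2 TPM in Prdm16SMKO mice. Ndufa4 was at 138 TPM in Prdm16SMKO library 2 and 247 TPM in library 3, and the share of Ndufa4l2 in the pair was 12.4%, 8.43% and 9.72% in control and 8.01%, 16.5% and 5.77% in Prdm16SMKO mice. Cox6b2, known from testis, was at 3.72 to 6.18 TPM in control and 4.35 to 7.97 TPM in Prdm16SMKO mice, under 7% of subunit 6B in every library, beside Cox6b1 at 83.9 to 196 TPM, and its log2 fold change was 0.32. The striated muscle isoform Cox6a2 was at 0 in 4 libraries and at most 0.66 TPM, and Cox7b2 and Cox8c were at 0 in all 6. Cox8b and Cox7a1, which the rule leaves out and the brown adipocyte list holds, made up 15.3%, 4.98% and 4.99% of subunit 8 and 19.7%, 8.42% and 10.1% of subunit 7A in control, and 5.50%, 1.26% and 20.7%, and 7.10%, 0% and 31.6%, in Prdm16SMKO mice. Both shares were highest in Prdm16SMKO library 3 and lowest in library 2, which were also the highest and among the lowest libraries in the sum of the 80 genes.

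**Figure D4:**
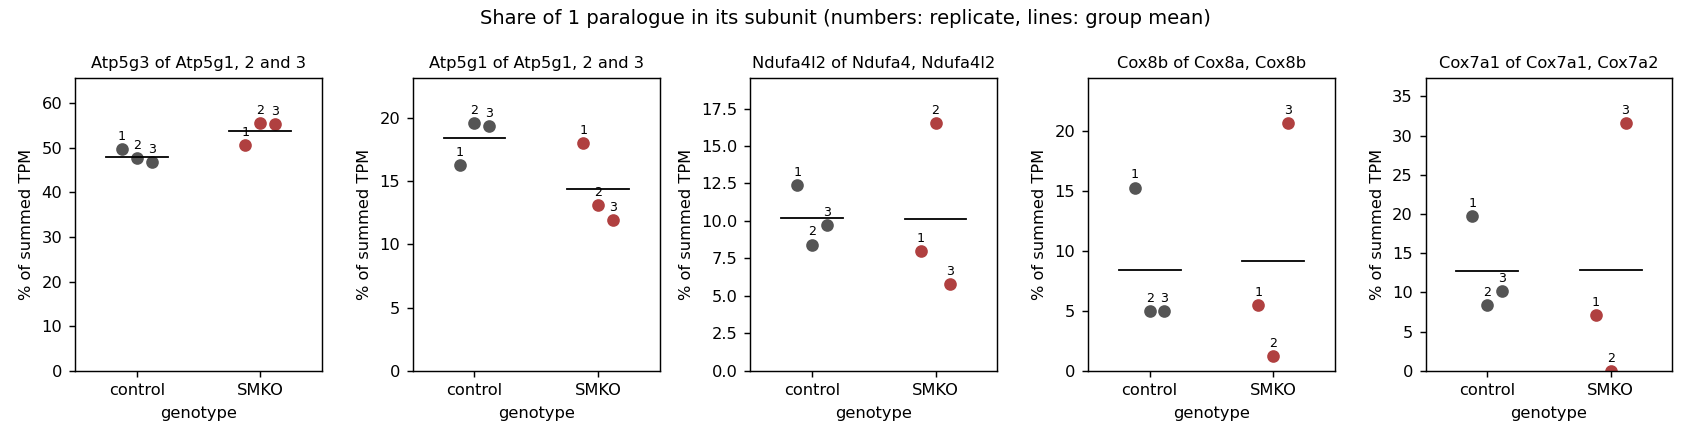
Share of 1 paralogue in the summed TPM of its set (vertical axes, percent, from 0), with 1 point per library marked by its replicate number, a line for the group mean, and the genotype on the horizontal axis. The Atp5g3 share of the c ring genes does not overlap between groups, while the Cox8b and Cox7a1 shares span 1.26% to 20.7% and 0% to 31.6% within the Prdm16SMKO group.

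Complex V makes ATP. Atp5b (chromosome 10, 128083273 to 128090391) was at 1108, 1055 and 701 TPM in control and 1074, 895 and 1664 TPM in Prdm16SMKO mice. Means of 955 ± 221 and 1211 ± 402 TPM (SD, n = 3 each) gave a log2 fold change of 0.32 (limma, adjusted p = 0.868 by Benjamini-Hochberg, standard error 0.27), and 0.07 without library 3. Atp5h, the d subunit of the peripheral stalk, had a log2 fold change of 0.19, with 225 to 299 TPM in control and 262 to 338 TPM in Prdm16SMKO mice. Atp5md, which encodes the small membrane subunit DAPIT, was at 227, 212 and 154 TPM in control and 249, 215 and 298 TPM in Prdm16SMKO mice, a log2 fold change of 0.37 (standard error 0.20). It was 0.25 without library 3 and 0.20 without control library 3.

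Atp5mpl (chromosome 12, 111961375 to 111966977), another small membrane subunit, was the other member without overlap. It was at 119, 106 and 89.1 TPM in control and 124, 140.1 and 130.2 TPM in Prdm16SMKO mice, with means of 104 ± 14.8 and 131 ± 8.18 TPM (SD, n = 3 each). The log2 fold change was 0.34 (limma, adjusted p = 0.605 by Benjamini-Hochberg, standard error 0.16, exact permutation test, two-sided p = 0.1) and was 0.34 without library 3 as well, and 0.23 without control library 3. Its highest library was Prdm16SMKO library 2, in which most members stood low.

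The c ring, the rotor in the membrane, is made from 1 protein that 3 genes encode with different targeting sequences. Their log2 fold changes differed in sign. Atp5g1 (chromosome 11, 96068852 to 96075670) was at 45.1, 66.4 and 45.7 TPM in control and 59.8, 38.7 and 31.5 TPM in Prdm16SMKO mice, and Prdm16SMKO library 3, the highest for 64 members, was its lowest. The log2 fold change was −0.30 (limma, adjusted p = 0.870 by Benjamini-Hochberg, standard error 0.26). Atp5g2 had 94.3, 111 and 80.3 TPM against 104, 92.2 and 87.0 TPM, a log2 fold change of −0.01 whose sign depended on the scaling. Atp5g3 (chromosome 2, 73908447 to 73911326) had 138, 161 and 110.5 TPM against 168, 164 and 146 TPM, with a log2 fold change of 0.24 (standard error 0.17). As a share of the 3 genes, which does not depend on how a library was scaled, Atp5g3 took 49.7%, 47.6% and 46.7% in control and 50.7%, 55.6% and 55.3% in Prdm16SMKO mice, without overlap. The gap between the nearest libraries was about 1 percentage point, and this share was looked at after the values were seen and was not tested. Atp5j, a peripheral stalk subunit also chosen after its values were seen, had nearly the same level in all 3 Prdm16SMKO libraries (186, 185 and 184 TPM, log2 fold change −0.01).

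The rest of the pathway was read from the same fit. None of its genes passed an adjusted p under 0.05 (limma, Benjamini-Hochberg). The 13 subunits encoded by mitochondrial DNA all had log2 fold changes above 0, the median being 0.12, and at an unadjusted p under 0.05 there was 0. For mt-Co1, the catalytic subunit of complex IV, the value was 0.20 and for mt-Co3 0.19. Their share of TPM was high in Prdm16SMKO libraries 1 and 3, with all mitochondrially encoded transcripts at 27.3% and 27.4%, and lowest in library 2, at 15.8%. The median was −0.02 without library 3.

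Of 48 factors that assemble the complexes, 38 had a log2 fold change above 0 (median 0.12, and 0.10 without library 3). At an unadjusted p under 0.05, 3 were higher and 1 lower, which is near the background of 4.88% and 3.85%. Pet117, an assembly factor of complex IV, was at 5.47, 5.75 and 6.82 TPM in control and 7.98, 11.1 and 9.15 TPM in Prdm16SMKO mice (log2 fold change 0.60, limma, adjusted p = 0.361 by Benjamini-Hochberg, standard error 0.19). Coa7, also of complex IV, was at 5.00, 3.27 and 5.86 TPM against 6.75, 6.28 and 7.80 TPM (0.54). The other 2 were chosen after their values were seen. Foxred1, which helps build complex I, had a log2 fold change of 0.53, and Sdhaf1, which is needed to insert the iron-sulfur clusters of Sdhb, had one of −0.47 (6.48, 6.44 and 5.98 TPM in control, 4.26, 4.31 and 4.67 TPM in Prdm16SMKO mice). None of the 4 overlapped between groups. Neither did Timmdc1, of complex I, nor Cox20, of complex IV, so that 4 of the 48 lay above control and 2 below, against 7.02% and 5.76% of all genes. Without Prdm16SMKO library 1, 2 or 3 in turn, 1 factor was higher at an unadjusted p under 0.05, against 3.84% to 5.29% of all genes. Without control library 3 the median of the 48 was 0.02.

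The electron carriers and enzymes of coenzyme Q synthesis (18 of 20 above 0, median 0.21), the citric acid cycle with pyruvate entry (17 of 19, 0.26) and fatty acid oxidation (14 of 17, 0.27) had medians at or above that of the 80 genes, and these were −0.04, 0.00 and −0.06 without Prdm16SMKO library 3. Of the coenzyme Q list, Coq8a was at 31.8, 27.1 and 11.7 TPM in control and 36.7, 16.4 and 88.2 TPM in Prdm16SMKO mice, and the glycerol phosphate shuttle enzyme Gpd2 at 8.14, 7.35 and 4.57 TPM against 6.87, 5.65 and 19.1 TPM. In fatty acid oxidation, the dehydrogenase Acadl and the thiolase Acaa2 stood at 173 and 131 TPM in library 3 and at most at 83.8 and 53.3 TPM in the other 5. In the citric acid cycle, 2 of 19 genes were higher at an unadjusted p under 0.05, against 4.88% of all genes. The number was 0 without Prdm16SMKO library 3 or control library 3 (5.29% and 2.89% of all genes higher). It was 1 without control library 2 (5.31%) and 5 without Prdm16SMKO library 2 (3.84%). Pcx, pyruvate carboxylase, had 18.2, 6.57 and 5.91 TPM in control and 14.0, 19.1 and 52.7 TPM in Prdm16SMKO mice (log2 fold change 1.39, standard error 0.53), and 0.84 without library 3. Dlat, a subunit of pyruvate dehydrogenase, had 13.2, 14.1 and 8.81 TPM against 15.5, 18.2 and 33.5 TPM (0.81, standard error 0.30), without overlap, and 0.49 without library 3.

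Of the 78 mitochondrial ribosomal protein genes, 47 (60.3%) were above 0, against 54.2% of all genes, with a median of 0.08. Without control library 3 the number was 31, against 40.3% of all genes. The median was then −0.04, against −0.07 for all genes. With all libraries, Mrps6 was the 1 of the 78 at an unadjusted p under 0.05 (limma), against 4.88% of all genes higher and 3.85% lower. It had 16.0, 16.3 and 14.3 TPM in control and 28.0, 17.8 and 24.2 TPM in Prdm16SMKO mice. Its log2 fold change was 0.55, and that of Mrpl47 was 0.41. Among the cytosolic ribosomal protein genes, Rps4l was the 1 at an unadjusted p under 0.05 (0.58), against the same shares of all genes. Rps3a3, at about 1 TPM, had 0.31.

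Of 23 regulators of mitochondrial gene expression, 21 were tested and 14 were above 0, with a median of 0.09. Prdm16 was the only one at an unadjusted p under 0.05, against 4.88% of all genes higher and 3.85% lower. At that level 3 others were higher without Prdm16SMKO library 2, against 3.84% of all genes. Nrf1, whose binding sequence was searched above, was at 10.7, 11.8 and 9.75 TPM in control and 10.6, 11.8 and 9.36 TPM in Prdm16SMKO mice, and Gabpa, the GABP subunit that binds DNA, at 18.2, 17.8 and 13.6 TPM against 15.7, 17.2 and 19.7 TPM. Tfam, a factor in the transcription and packing of mitochondrial DNA, ran from 14.1 to 23.3 TPM and from 18.7 to 20.4 TPM. The log2 fold changes of these 3 were −0.02, 0.09 and 0.06 and changed sign under other settings. The coactivator Ppargc1a (1.67, 1.20 and 1.07 TPM against 1.92, 1.09 and 4.46 TPM), the nuclear receptor Esrra (18.8, 16.9 and 12.8 TPM against 22.8, 16.5 and 27.5 TPM) and Pparg, the receptor of adipocyte differentiation (9.22, 4.81 and 3.41 TPM against 8.28, 7.26 and 25.7 TPM), had log2 fold changes of 0.57, 0.44 and 1.05, with adjusted p from 0.611 to 0.825 (limma, Benjamini-Hochberg), and were highest in Prdm16SMKO library 3. Without that library the values were 0.13, 0.27 and 0.49.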

How the data were processed

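Polyadenylated RNA of the abdominal aorta was measured in 3 control and 3 Prdm16SMKO libraries. The deposited values are TPM per gene and library, which the authors made on GRCm38. The submitters' processing notes name cutadapt 2.3, STAR 2.7.8a and RSEM 1.3.3, without their settings or annotation. TPM sum to the same total in every library, so that the share of mitochondrial and ribosomal RNA moves all other values. Genes averaging 0.5 TPM or more were compared on log2(TPM + 0.5) by limma 3.58.1 in R 4.3.3, with variances that follow a trend and Benjamini-Hochberg adjustment of two-sided p-values. The fit was tested on simulated data. Fold changes on this scale understate those of low genes. Positions and lengths are those of GENCODE M21. The members and the gene lists were chosen with earlier results of these data known. By complex, the 2 members with the highest mean TPM and the 2 with the largest absolute log2 fold change among those averaging 5 TPM or more are named, with every member at an adjusted p under 0.05 or an unadjusted p under 0.01, the members of the isoform sets, the 2 genes with the largest change of each pathway list at a mean of 1 TPM or more, and 6 fixed regulators. Other genes were chosen after their values were seen, and so were the shares of paralogues. Besides the marker lists given in the report, lists for fibroblasts, endothelial cells, macrophages, cardiomyocytes, skeletal muscle, neurons and Schwann cells, erythroid cells and lymphocytes were summed per library.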

Additional observations from a re-analysis of the deposited data

How the results depend on the processing

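None of the 80 members passed an adjusted p under 0.05 under any of the 19 alternatives (limma, Benjamini-Hochberg). The number at an unadjusted p under 0.05, 0 as reported, was 1 with no expression minimum (6.55% of all genes), 2 with median-of-ratios size factors (13.6%), 7 with quantile normalization (12.7%), 4 on TPM rescaled without mitochondrial and 45S ribosomal RNA (12.6%), 3 with array weights (20.1%), 1 with GC content and length trends removed (14.2%), and 0 to 9 with each library left out in turn (6.36% to 9.09%). Members above 0 numbered 47 to 76 with a library left out, the median log2 fold change then ran from 0.03 to 0.32, and array weights gave 51 and 0.05. The members without overlap, 2 as reported, numbered 2 to 33 with a library left out. Without Prdm16SMKO libraries 1, 2 and 3 they were 6, 33 and 3, against 22%, 21.6% and 20.9% of all genes. Without control libraries 1, 2 and 3 they were 7, 9 and 2, against 18.6%, 24% and 26%. On the rescaled TPM they were 3 (18.6% of all genes), and 9 without the pair of libraries highest in brown adipocyte markers (28.3%). Over all genes, the 56 called became 10 with no minimum, 153 with size factors, 129 with quantile normalization, 144 rescaled, 33 without a trend, 112 with robust variances, 494 with array weights, 111 with GC content and length trends removed, and 5 to 61 with a library left out. Of the pathway lists, array weights called 1 gene, Pet117 (log2 fold change 0.72). With the replicate number as a block, 4 genes and 0 members were called. The labels do not say whether equal numbers pair the libraries. The deviations of same-numbered libraries from their group means had correlations of −0.13, −0.11 and 0.02. With 3 libraries per group these cannot settle it. The causes of these differences were not tested.

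Of 49 single genes followed, 14 changed sign in log2 fold change under an alternative. Array weights turned Acaa2 (−0.0882), Cox6b1 (−0.18), Gabpa (−0.0597), Ndufa4 (−0.0038), Ndufa4l2 (−0.31), Ndufb4c (−0.051), Tfam (−0.22), Uqcrb (−0.0714), Nrf1 (0.0058) and Atp5g2 (0.0022). Quantile normalization turned Atp5g2 (0.04) and Cox4i2 (−0.0407), rescaling turned Atp5g2 (0.0106), and removing GC content and length trends turned Tfam (−0.0161). Without the pair highest in brown adipocyte markers, the values were 0.0501 for Atp5g2, −0.0492 for Cox6a1, −0.0581 for Cox6b1, −0.0223 for Cox6b2, −0.0027 for Ndufa4 and 0.0601 for Nrf1. Leaving out 1 library, values ran from −0.20 to 0.88 for Acaa2, −0.12 to 0.11 for Atp5g2, −0.10 to 0.21 for Cox4i2, −0.0897 to 0.38 for Cox6a1, −0.18 to 0.43 for Cox6b1, −0.0435 to 0.16 for Gabpa, −0.0574 to 0.78 for Gpd2, −0.0716 to 0.35 for Ndufa4, −0.26 to 0.28 for Ndufa4l2, −0.028 to 0.24 for Ndufb4c, −0.0981 to 0.0625 for Nrf1, −0.15 to 0.21 for Tfam and −0.026 to 0.27 for Uqcrb. The 3 libraries per group limit what can be shown. The median deviation of the members had an SD between libraries, pooled within the groups, of 0.27 on the log2 scale. The median log2 fold change beside it was 0.18, and the depth behind each TPM is unknown.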

Other observations

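The other cell types that the vessel wall and its surroundings can hold did not share the order of the 80 OXPHOS genes. Summed TPM of 10 fibroblast markers ran from 2852 to 3013 in control and from 2273 to 3950 in Prdm16SMKO mice, and that of 10 endothelial markers from 307 to 386 and from 346 to 580. Macrophage markers were at 131, 112 and 83.5 TPM in control and 131, 242 and 184 TPM in Prdm16SMKO libraries 1, 2 and 3, with 9 of 10 above 0 and 6 higher at an unadjusted p under 0.05 (limma), against 4.88% of all genes. That number was 0 without Prdm16SMKO library 2 (3.84% of all genes higher). It was 2 and 3 without control libraries 3 and 2 (2.89% and 5.31%), and 4 to 8 without the others (3.94% to 5.29%). Erythroid markers reached 19570 TPM in Prdm16SMKO library 2, against 1143 to 4947 TPM in the other 5, and this library also had the lowest share of mitochondrial transcripts. Markers of neurons and Schwann cells (806 TPM) and of skeletal muscle (112 TPM) were highest in Prdm16SMKO library 1, where the other 5 libraries held 54.0 to 269.8 TPM and 8.20 to 20.2 TPM. Lymphocyte markers summed to at most 14.7 TPM. The part of any of these cells in the differences of the 80 genes was not tested.

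Of 13 cardiomyocyte markers, 6 passed the expression minimum and 1, Tnnt2, was higher at an adjusted p under 0.05. The list summed to 33.6 to 51.0 TPM in control and 339 to 378 TPM in Prdm16SMKO mice. Tnnt2 alone was at 5.76 to 11.8 TPM and 304 to 346 TPM, and without it the sums were 27.5 to 39.1 and 32.9 to 34.9 TPM. Myh6, Pln and Ryr2, which are among the 6, had log2 fold changes below 0. Cox6a2, the heart and muscle isoform of complex IV that stands on this list, was at most 0.66 TPM. Complex IV summed to 3060, 3098 and 2389 TPM in control and 3185, 2709 and 4196 TPM in Prdm16SMKO mice.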
